A study of Mus musculus with 24 samples.

Results

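In MuRF1 Tg+ hearts that had undergone ischemia-reperfusion (I/R), tissue from below the tie on the left anterior descending coronary artery (LAD) was set against tissue from above it. The comparison was defined by the sample titles. It held 3 arrays of below pieces and 3 of above pieces, 6 of the 24 arrays in the series. All mice were 12 to 16 weeks old, and the labels state that each heart gave both pieces, with 3 hearts per genotype and surgery. The groups used here were MuRF1 Tg+ I/R below and above, with wild-type (MuRF1+/+) I/R below and above and MuRF1 Tg+ sham below and above beside them. In sham hearts the pieces were taken at the site where the tie would have been placed. RNA of each piece, labelled with Cy5, was hybridised to a two-colour array against a Cy3-labelled reference pool of whole day 1 C57BL/6 pups that all arrays shared. The values are log2 ratios of the piece over the pup pool, and a difference is below minus above on that log2 scale unless another is named. Same-numbered pieces are taken here to be those of 1 heart and are called hearts 1, 2 and 3; the labels give 2 pieces a heart without tying the numbers to hearts. The groups were strain-matched, but which strain was operated on, what promoter drove the transgene and how long after reperfusion the hearts were taken were not stated in the labels.

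The LAD supplies the front wall and apex of the left ventricle, so tissue below a tie loses its blood flow and regains it when the tie is released. Tissue above the tie keeps its flow and lies nearer to the atria, the valves and the roots of the great vessels. MuRF1, encoded by Trim63, is a ubiquitin ligase of striated muscle that binds titin at the sarcomere and marks muscle proteins for the proteasome. In bulk tissue, fewer cells of a type and less RNA per cell cannot be told apart.

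Trim63, whose product the transgene adds, had log2 ratios of 2.28, 1.43 and 1.49 on the above arrays and 1.64, 0.34 and 0.27 on the below arrays. The below arrays of hearts 2 and 3 lay under all of the others, while that of heart 1 lay within the above range. The difference was -0.98 ± 0.39 (standard error of the fit, as after every ± below unless SD is named), with a limma adjusted p of 0.170. Trim63 was not among the features called. Its mean ratio in wild-type I/R hearts was 1.64 above and 1.65 below, against 1.73 and 0.75 in MuRF1 Tg+ I/R hearts, so after I/R this probe did not read higher in the hearts labelled MuRF1 Tg+ below the tie. Whether it detects the transgene's RNA was not stated in the labels.

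The heart channel was weaker on the below arrays. On the above arrays 37.9%, 31.3% and 29.2% of Cy5 spots were well above background, and on the below arrays 28.3%, 13.6% and 20.1%. The ratios of the 11419 features tested were also spread less widely on the weak below arrays. Their SD over features was 0.81, 0.81 and 0.78 on the above arrays and 0.77, 0.54 and 0.64 on the below arrays. The below mean was nearer to 0 than the above mean for 8733 features (76.5%). Taken array by array, 56.7% of features on below replicate 1 were nearer to 0 than the above mean, 74.7% on below replicate 2 and 67.5% on below replicate 3. Of the 6 arrays only above replicate 1 and below replicate 2 shared a slide. The part of signal strength in the differences was not tested. For that reason the value of heart 1, whose below array was the strongest, is given beside the main results. Of 15 ventricular cardiomyocyte markers on the array, each read by its brightest probe, 10 were well above background on all 6 arrays, among them Myl2 and Myl3. Hey2 and Ky were not well above background on any.

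**Figure D1:**
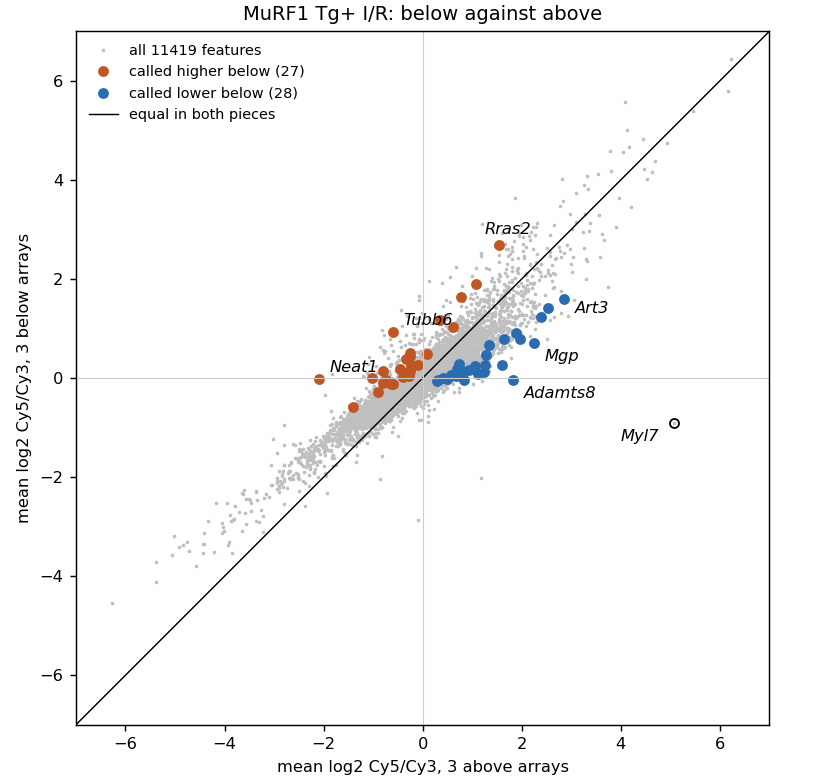
Mean log2 ratio of heart piece over pup reference on the 3 below arrays (vertical) against the 3 above arrays (horizontal) for 11419 features, one point each, with the 27 called higher below in orange, the 28 called lower in blue and the line of equality in black. The cloud is flatter than the line, and Myl7, circled and not called, lies farthest beneath it.

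Among the features called, those with a limma adjusted p under 0.05, the largest increases were those of Neat1 (4.18-fold), Tubb6 (2.90-fold) and Rras2 (2.21-fold). Of called genes measured in both pieces, Mgp and Fbln1 had the largest decreases, with differences of -1.53 and -1.35 on the log2 scale. Adamts8 had only a bound, given further on. Some features that were not called had larger differences in either direction, those of Myl7 and Myl4 being the largest of all. In all, 55 of 11419 features passed a limma adjusted p of 0.05 (0.482%), of which 27 were higher below (0.236%) and 28 lower (0.245%). At an unadjusted p under 0.05 there were 1271 higher (11.1%) and 1308 lower (11.5%). The 3 below arrays lay wholly over the 3 above arrays for 12.1% of features and wholly under them for 10.9%, and for none of the 55 did the groups overlap.

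With the heart as a block, 111 features passed (60 higher and 51 lower), 46 of them among the 55. With slide as a block 3 passed, namely Neat1, Gpatch4 and Mgp. From the 6 arrays of this comparison alone 3 others passed, and from the 12 I/R arrays alone none did. The count was 21 without above replicate 1, 22 without above replicate 2, 1497 without below replicate 1, 4 without below replicate 2 and 33 without below replicate 3. The 4 left without below replicate 2 were Neat1, Gpatch4, Ctps and Pacsin3.

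Neat1, a long noncoding RNA that builds nuclear paraspeckles, had ratios of -2.12, -2.0 and -2.15 on the above arrays and -0.76, -0.045 and 0.72 on the below arrays. The above arrays lay within a narrow band, and all 3 below arrays stood well over it, with heart 3 the highest and heart 1 the lowest. The difference was 2.06 ± 0.30, with a limma adjusted p of 0.00569, and the array of heart 1 alone stood 1.33 over the above mean. Luc7l3, a splicing factor, had a difference of 0.81 ± 0.18 (limma adjusted p = 0.0414). Gpatch4, a G-patch protein of the nucleus, gave 0.35, 0.40 and 0.31 on the above arrays and 1.01, 1.32 and 1.17 on the below arrays. Its 3 below arrays stood close together and apart from the 3 above arrays, and its difference of 0.81 ± 0.10 had the smallest limma adjusted p of the table, 0.00198.

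Among genes of growth and nucleotide or polyamine synthesis, Rras2, a Ras-family GTPase, had ratios of 1.47, 1.46 and 1.68 on the above arrays and 2.68, 2.94 and 2.43 on the below arrays. Its below arrays did not overlap the above arrays, and heart 1 stood as far over them as the mean of the 3 (1.15 against 1.15). Ctps, which makes CTP from UTP, had ratios of 0.55, 0.61 and 1.17 on the above arrays and 1.61, 1.49 and 1.81 on the below arrays. All 3 below arrays exceeded the highest above array, and the limma adjusted p was 0.00569 for a difference of 0.86 ± 0.13. Odc1, ornithine decarboxylase, which starts polyamine synthesis, differed by 0.95 ± 0.19 (limma adjusted p = 0.0307). Its below arrays read -0.077, 0.49 and 0.014, all over the highest above array at -0.69.

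Tubb6, a beta-tubulin, had ratios of -1.28, -0.52 and -0.0037 on the above arrays and 0.25, 1.38 and 1.18 on the below arrays. The arrays of both pieces were widely spread, without overlap, and the difference was 1.54 ± 0.31 (limma adjusted p = 0.0261). Ppp1r14b, an inhibitor of protein phosphatase 1, differed by 1.03 ± 0.20 (limma adjusted p = 0.0205), with below replicate 2 the highest at 0.52 and below replicate 1 the lowest at -0.47. Pacsin3, which bends membranes at caveolae and endocytic sites, rose by 0.83 ± 0.12 (limma adjusted p = 0.00569), and its 3 below arrays ran from 1.64 to 2.10 against 0.88 to 1.19 above. The remaining genes among the 12 largest called increases were Lypla2, an acyl-protein thioesterase (0.77), Fam160b2 (0.71) and Ap1s1, the small subunit of the AP-1 clathrin adaptor (0.71). Fam160b2 had the most even below arrays of these, at 0.37, 0.30 and 0.46.

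Other probes bore on some of these increases. Of the 55 called genes, 19 had another probe that passed the filter, 24 probes in all, and 17 of the 24 had the same direction as the probe that was tested. For Tubb6 the other probe gave -0.30 ± 0.28, and for Gpatch4 it gave -0.13 ± 0.11, both opposite to the probe tested. For Rras2 the others gave -0.11 ± 0.13 and 0.39 ± 0.23. For Odc1 they gave 0.17 ± 0.082 and 0.46 ± 0.11, and for Ppp1r14b 0.32 ± 0.082, smaller than on the probe tested but in its direction. The disagreeing probes all belonged to genes called higher. Some of the 17 were close to 0: those of Auh (-0.095 ± 0.11), Twsg1 (-0.021 ± 0.13), Aen (0.0026 ± 0.19), 1 of Snx12 (0.023 ± 0.090) and 1 of Prepl (-0.096 ± 0.12), genes named here after their values were seen. On the lower side Fbln1 gave -1.44 ± 0.24, Adamts8 -1.40 ± 0.33 and Trdn -0.38 ± 0.16 on the other probe.

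**Figure D2:**
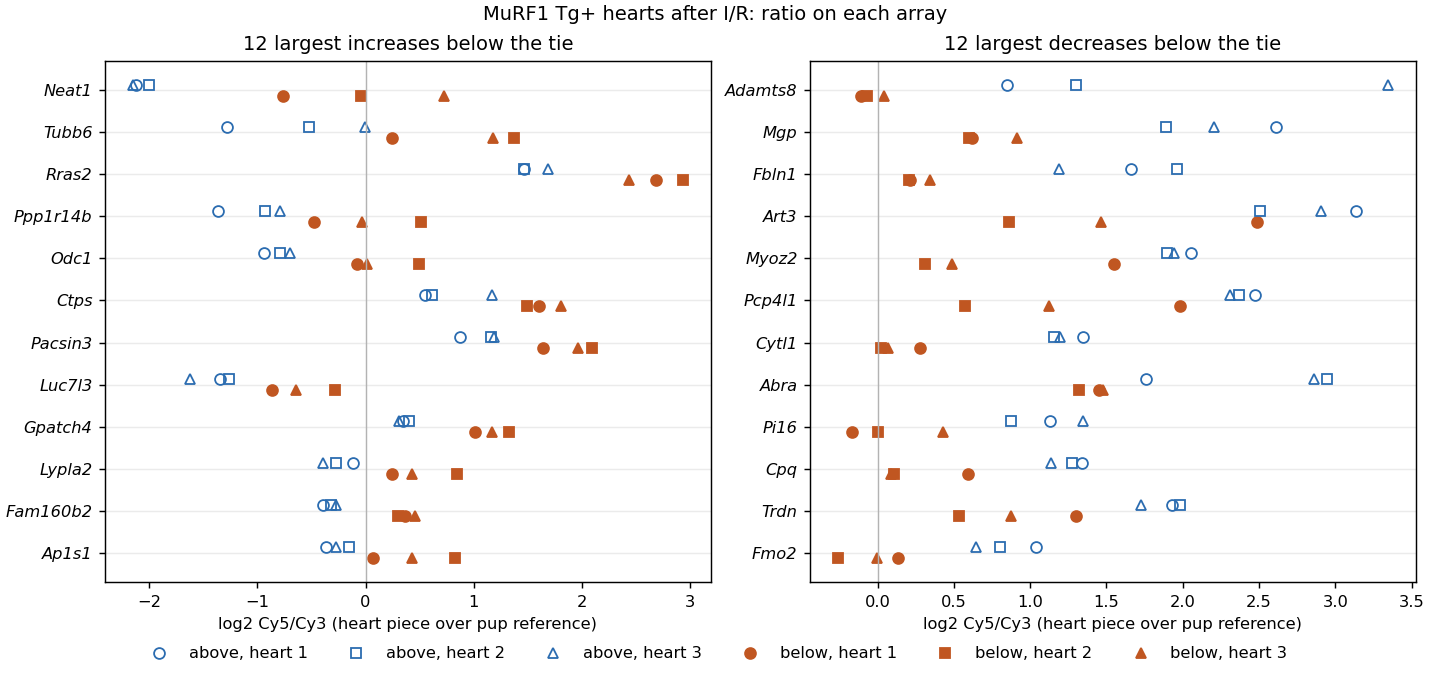
Log2 ratio of each array for the 12 largest increases (left) and the 12 largest decreases (right) among called features, with above arrays as open blue symbols and below arrays as filled orange ones, and circles, squares and triangles for hearts 1, 2 and 3. Neat1 runs from -2.15 to -2.0 above and from -0.76 to 0.72 below, and Art3 and Pcp4l1 show heart 1 much closer to the above arrays than hearts 2 and 3.

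Of the genes called lower, several encode secreted proteins, but the list of collagens, laminins and matrix had none called of 40 tested and a median of 0.28, with 31 members on the higher side and 9 on the lower. That median turned negative in 5 alternatives, among them the one without the weak arrays. Mgp, matrix Gla protein, an inhibitor of tissue calcification made by vessel and valve cells, had ratios of 2.61, 1.89 and 2.21 on the above arrays and 0.62, 0.60 and 0.91 on the below arrays. The 3 below arrays lay within a narrow band well under the 3 above arrays, and the difference was -1.53 ± 0.24 (limma adjusted p = 0.00569). Fbln1, a fibulin of the extracellular matrix, had ratios of 1.66, 1.96 and 1.19 on the above arrays and 0.21, 0.21 and 0.34 on the below arrays. Here too the pieces were apart, with a difference of -1.35 ± 0.24 (limma adjusted p = 0.0158). Pi16, a marker of adventitial fibroblasts, fell by 1.03 ± 0.19 (limma adjusted p = 0.0197), and Cytl1, a small secreted protein of cartilage, fell by 1.11 ± 0.19 (limma adjusted p = 0.0120). Only 1 below array read Cytl1 well above background.

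Adamts8, a secreted metalloproteinase, had ratios of 0.85, 1.30 and 3.35 on the above arrays and -0.11, -0.071 and 0.044 on the below arrays. Above replicate 3 stood far over the other arrays, and no below array read Adamts8 well above background, so its fold is a bound. It was at least 3.51-fold higher above, from Cy5 levels after normalization within and between arrays (limma adjusted p = 0.0349). On below replicate 1 the values of Mgp, Fbln1, Pi16 and Adamts8 were -1.62, -1.39, -1.29 and -1.94 from the above mean, at least as large as on the mean of the 2 weaker below arrays. Such was the case for 7 of the 28 genes called lower and for 2 of the 27 called higher.

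Myoz2, calsarcin-1, a Z-disc protein that binds calcineurin, had ratios of 2.06, 1.89 and 1.95 on the above arrays and 1.55, 0.31 and 0.49 on the below arrays. All 3 below arrays lay under the above arrays, heart 1 by much less than hearts 2 and 3, and the difference was -1.18 ± 0.22 (limma adjusted p = 0.0195). Trdn, triadin, which anchors calsequestrin to the ryanodine receptor, had ratios of 1.93, 1.98 and 1.73 on the above arrays and 1.30, 0.53 and 0.87 on the below arrays. Its difference was -0.98 ± 0.17 (limma adjusted p = 0.0114), and heart 1 was again the nearest to the above arrays. Abra, an actin-binding protein of striated muscle, had 1.76, 2.94 and 2.86 on the above arrays and 1.45, 1.32 and 1.48 on the below arrays. Its below arrays were tightly grouped and its above arrays were not, with a difference of -1.10 ± 0.24 (limma adjusted p = 0.0401).

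Art3, a member of the ADP-ribosyltransferase family, fell by 1.25 ± 0.26 (limma adjusted p = 0.0349) and Pcp4l1 fell by 1.16 ± 0.24 (limma adjusted p = 0.0358), although their below replicate 1 arrays, at 2.48 and 1.99, were close to the lowest above arrays at 2.51 and 2.31. Ndufc2, a subunit of respiratory complex I, had ratios of 0.56, 0.69 and 0.47 on the above arrays and 0.19, -0.061 and 0.028 on the below arrays. The spread within each piece was small and the difference was -0.52 ± 0.078 (limma adjusted p = 0.00569). Cpq, a secreted carboxypeptidase, and Fmo2, a flavin-containing monooxygenase, differed by -0.99 ± 0.18 and -0.87 ± 0.14, with limma adjusted p of 0.0195 and 0.00569. Fmo2 was well above background on only 1 below array. For all 28 genes called lower the below mean was nearer to 0 than the above mean, against 15 of the 27 called higher.

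The sequences before the start sites of Myoz2 and Fbln1, a muscle gene and a matrix gene that fell, are shown because each holds 1 of the 2 motifs searched. Sequences are the 250 bases before the start from RefSeq (GRCm38.p6), where 22 of the 28 genes called lower and 21 of the 27 called higher had an entry. In Myoz2 (chr3:123034988-123035237, minus strand) capitals mark CTA, any 4 bases and TAG, a pattern that includes the core of the MEF2 site of muscle genes but is looser. In Fbln1 (chr15:85205699-85205948, plus strand) they mark CACGTG, an E-box. The matches begin at -33 and -81 from the start.
Myoz2: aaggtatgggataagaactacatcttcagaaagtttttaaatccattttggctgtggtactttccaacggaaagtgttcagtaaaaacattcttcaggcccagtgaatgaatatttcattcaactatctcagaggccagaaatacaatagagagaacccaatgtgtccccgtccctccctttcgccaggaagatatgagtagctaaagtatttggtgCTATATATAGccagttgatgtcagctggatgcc
Fbln1: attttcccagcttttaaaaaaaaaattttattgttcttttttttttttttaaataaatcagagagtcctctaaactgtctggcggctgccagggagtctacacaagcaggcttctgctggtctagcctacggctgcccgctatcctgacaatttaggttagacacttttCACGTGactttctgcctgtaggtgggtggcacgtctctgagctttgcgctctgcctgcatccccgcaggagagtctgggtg
Each motif is its own reverse complement, so that 1 search covers both strands. The looser MEF2 pattern stood in 2 of 22 promoters of genes called lower (9.09%) and in 0 of 21 of genes called higher. It stood in 2.66% of the 8317 tested features with a promoter and in 3.23% of all 27025 promoters of that length. CACGTG stood in 1 of 22 (4.55%), in 1 of 21 (4.76%), in 8.63% of tested features and in 6.05% of all. These are matches of letters in these windows.

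Myl7 and Myl4, both atrial RNAs, had the 2 largest differences of all features. Myl7, the atrial regulatory light chain of myosin, had ratios of 4.62, 5.27 and 5.34 on the above arrays and -1.45, -0.54 and -0.72 on the below arrays, so that every above array exceeded every below array by a wide margin. The difference was -5.98 ± 1.47, 63.1-fold, yet its limma adjusted p was 0.0664, and that standard error draws on the spread of this gene within all 8 groups. From the 6 arrays alone the standard error was 0.28 and the limma adjusted p 0.00119, within a range over alternatives of 0.00119 to 0.378. Myl4, the atrial essential light chain, had ratios of 1.41, 0.96 and 1.15 on the above arrays and -2.56, -1.47 and -2.04 on the below arrays, a difference of -3.19 ± 0.96 with a limma adjusted p of 0.107. It and Ccl19, a chemokine named after its values were seen (-1.38 ± 0.36), were the other features that passed with 6 arrays. Pam, a peptide-amidating enzyme abundant in atrial granules, differed by -1.65 ± 0.46 (limma adjusted p = 0.0923).

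Of the 15 atrial markers tested, none was called. At an unadjusted p under 0.05, 6 were lower and none higher (11.5% and 11.1% of all features). On the lower side 8 did not overlap between pieces, against 10.9% of all features. The list median was -0.62 here, -0.60 in wild-type I/R hearts and -0.19 in MuRF1 Tg+ sham hearts, against a median of -0.0044 over all features. By heart the medians were -0.74, -0.80 and -0.36, all negative. The Myl7 difference was -5.24 ± 1.47 in wild-type I/R hearts and -2.03 ± 1.47 in MuRF1 Tg+ sham hearts. Neither interaction passed for Myl7 (limma adjusted p = 0.840 for genotype and 0.805 for surgery).

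Fibroblast markers split. Of 22 tested, Mgp, Fbln1 and Pi16 were called lower, 8 had an unadjusted p under 0.05 on the lower side and 1 on the higher side, and the median was -0.18. Over all features 0.245% were called lower and 11.5% had such a p on the lower side. The list median by heart was -0.57, 0.13 and 0.012, so that heart 1 alone had a clearly negative median. Valve and cartilage markers (8 tested) had a median of -0.0018, with Cytl1 called lower. Comp, a cartilage matrix protein that stayed near background on all 3 below arrays, differed by -0.85 ± 0.26 (limma adjusted p = 0.107).

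**Figure D3:**
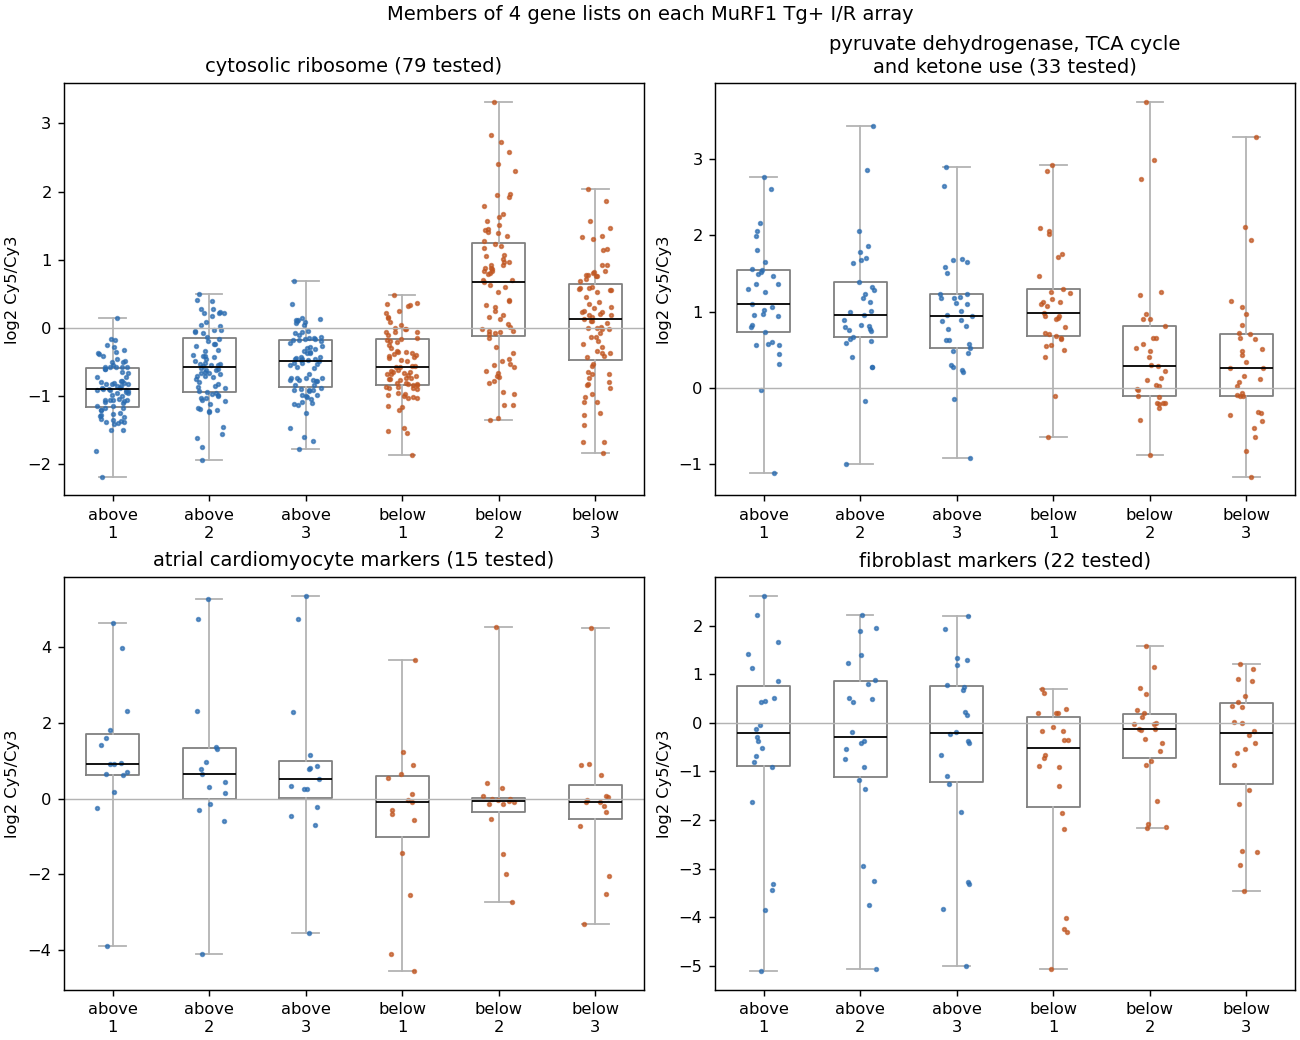
Log2 ratio of each tested member on each of the 6 arrays for 4 gene lists, one point a gene, with boxes from the lower to the upper quartile, the median as a line and whiskers to the extremes (above arrays in blue, below in orange). Ribosome members are shifted up on below replicates 2 and 3, and members of the pyruvate dehydrogenase and TCA list are shifted down there, whereas below replicate 1 lies closer to the above arrays on both lists.

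The metabolic lists differed from one another, and Ndufc2 was their only member called. For pyruvate dehydrogenase, the TCA cycle and ketone use, 17 of 33 members had an unadjusted p under 0.05 on the lower side, 1 on the higher side (11.5% and 11.1% of all features), and none was called. The median difference was -0.52, and by heart -0.054, -0.70 and -0.65. Sdhc, a subunit of succinate dehydrogenase, had ratios of 1.02, 0.81 and 0.95 on the above arrays and 0.64, -0.19 and -0.11 on the below arrays. Pdhb, the beta subunit of pyruvate dehydrogenase, differed by -0.83 ± 0.19 (limma adjusted p = 0.0517), and Idh3b, of the NAD-linked isocitrate dehydrogenase, by -1.12 ± 0.28 (limma adjusted p = 0.0718). With below replicate 1 alone against the 3 above arrays the list median was 0.0092.

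Fatty acid oxidation (41 members) showed a like arrangement, with a median of -0.40 and medians of -0.071, -0.53 and -0.48 by heart. Eci1 and Hadhb, both enzymes of beta-oxidation, differed by -0.79 ± 0.21 and -0.88 ± 0.24 (limma adjusted p = 0.0839 and 0.0912). Plin2, the coat protein of lipid droplets, went the other way at 0.77 ± 0.20 (limma adjusted p = 0.0755). Its ratios were -1.26, -1.90 and -1.34 on the above arrays and -0.73, -0.52 and -0.93 on the below arrays, without overlap, and heart 1 stood 0.77 over the above mean, as much as the 3 together. The respiratory chain, with 72 members tested, had a median of 0.073, and by heart 0.32, 0.031 and 0.033. Only Ndufc2 was called, on the lower side, as were 0.245% of all features. At an unadjusted p under 0.05, 12 members were lower and 2 higher (11.5% and 11.1% of all features). Mitochondrial ribosomal proteins (68) had a median of -0.17 and medians by heart of 0.028, -0.33 and -0.29.

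The lists of cardiac muscle had medians below 0 in the fit. They were -0.46 over 13 ventricular cardiomyocyte markers (-0.032, -0.65 and -0.63 by heart), -0.33 over 36 genes of calcium handling and excitation (-0.12, -0.65 and -0.34) and -0.19 over 42 sarcomere genes (0.16, -0.34 and -0.52). For sarcomere genes the median on the 1 shared slide was 0.0087. Myoz2 was the 1 ventricular and sarcomere member called and Trdn the 1 calcium handling member called, both lower. Over all features 0.245% were called lower. Muscle ubiquitin ligases and atrophy genes (32 tested), the list that holds Trim63, had a median of -0.26, and none was called. Asb11, an ankyrin-repeat adaptor of a ubiquitin ligase, differed by -1.72 ± 0.40 (limma adjusted p = 0.0529), and Trim55, which encodes MuRF2, by 0.82 ± 0.24 (limma adjusted p = 0.107).

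The highest list medians were those of skeletal muscle markers (0.78 over 11), cytosolic ribosomal proteins (0.65 over 79), adipocyte markers (0.53 over 10) and cell cycle genes (0.52 over 23). For adipocyte markers the medians by heart were -0.0031, 0.91 and 0.45. None was called, and 1 member was higher at an unadjusted p under 0.05 (11.1% of all features). Their median turned negative in 5 alternatives, among them the one without the weak arrays. Of the ribosomal proteins 50 had an unadjusted p under 0.05 on the higher side, where 11.1% of all features did, none on the lower side, and none was called. By heart their medians were 0.36, 1.06 and 0.56. With the Cy5 channel alone the median was -0.21. That setting drops the pup reference and also normalizes Cy5 between arrays, and which of these turned the sign was not tested. Rps4x had ratios of -1.21, -1.03 and -1.09 on the above arrays and -0.57, 1.23 and 0.19 on the below arrays, with below replicate 2 the highest, although its difference ran from -0.089 to 1.82 over the alternatives. Rpsa, by contrast, was even across hearts, at -1.35, -1.56 and -1.67 on the above arrays and -1.02, -0.94 and -1.26 on the below arrays, and differed by 0.45 ± 0.13 (limma adjusted p = 0.102). All 23 cell cycle genes tested were on the higher side, 12 at an unadjusted p under 0.05 (11.1% of all features). H2az1, a histone variant, differed by 0.66 ± 0.21 (limma adjusted p = 0.116).

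Most ribosomal, cell cycle and skeletal muscle members lay below 0 on the above arrays, where the pup pool gave the stronger signal. Of the ribosomal proteins 57 of 79 were nearer to 0 below the tie, of the cell cycle genes 23 of 23 and of the skeletal muscle markers 10 of 11. Over all features 76.5% were nearer to 0, a share that the ribosomal proteins did not exceed. Lists with medians below 0 had such members too: 35 of 36 for calcium handling, 27 of 33 for the TCA cycle and 33 of 41 for fatty acid oxidation. The counts were 12 of 15 for atrial markers, 9 of 13 for ventricular markers and 24 of 42 for sarcomere genes. Myh2, a fast skeletal myosin, had ratios of -3.00, -2.73 and -2.69 on the above arrays and -2.55, -0.76 and -0.78 on the below arrays, and Tnni2, fast skeletal troponin I, had -3.34, -2.82 and -2.90 on the above arrays and -2.68, 0.082 and -1.09 on the below arrays. Both stood close to the above arrays in heart 1. The lower signal of the Cy5 channel on below replicates 2 and 3 moves with these shifts, and its part in them was not tested.

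Nuclear noncoding RNAs and RNA processing genes had a median of 0.40 over 25 members, with Neat1 called and 11 higher against 1 lower at an unadjusted p under 0.05 (11.1% and 11.5% of all features), and medians by heart of 0.20, 0.49 and 0.44. Tubulins and cytoskeletal genes had a median of 0.38 over 35 and 0.18, 0.69 and 0.35 by heart, with Tubb6 called. Over all features 0.236% were called higher. Without the weak arrays the tubulin median was -0.0053.

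**Figure D4:**
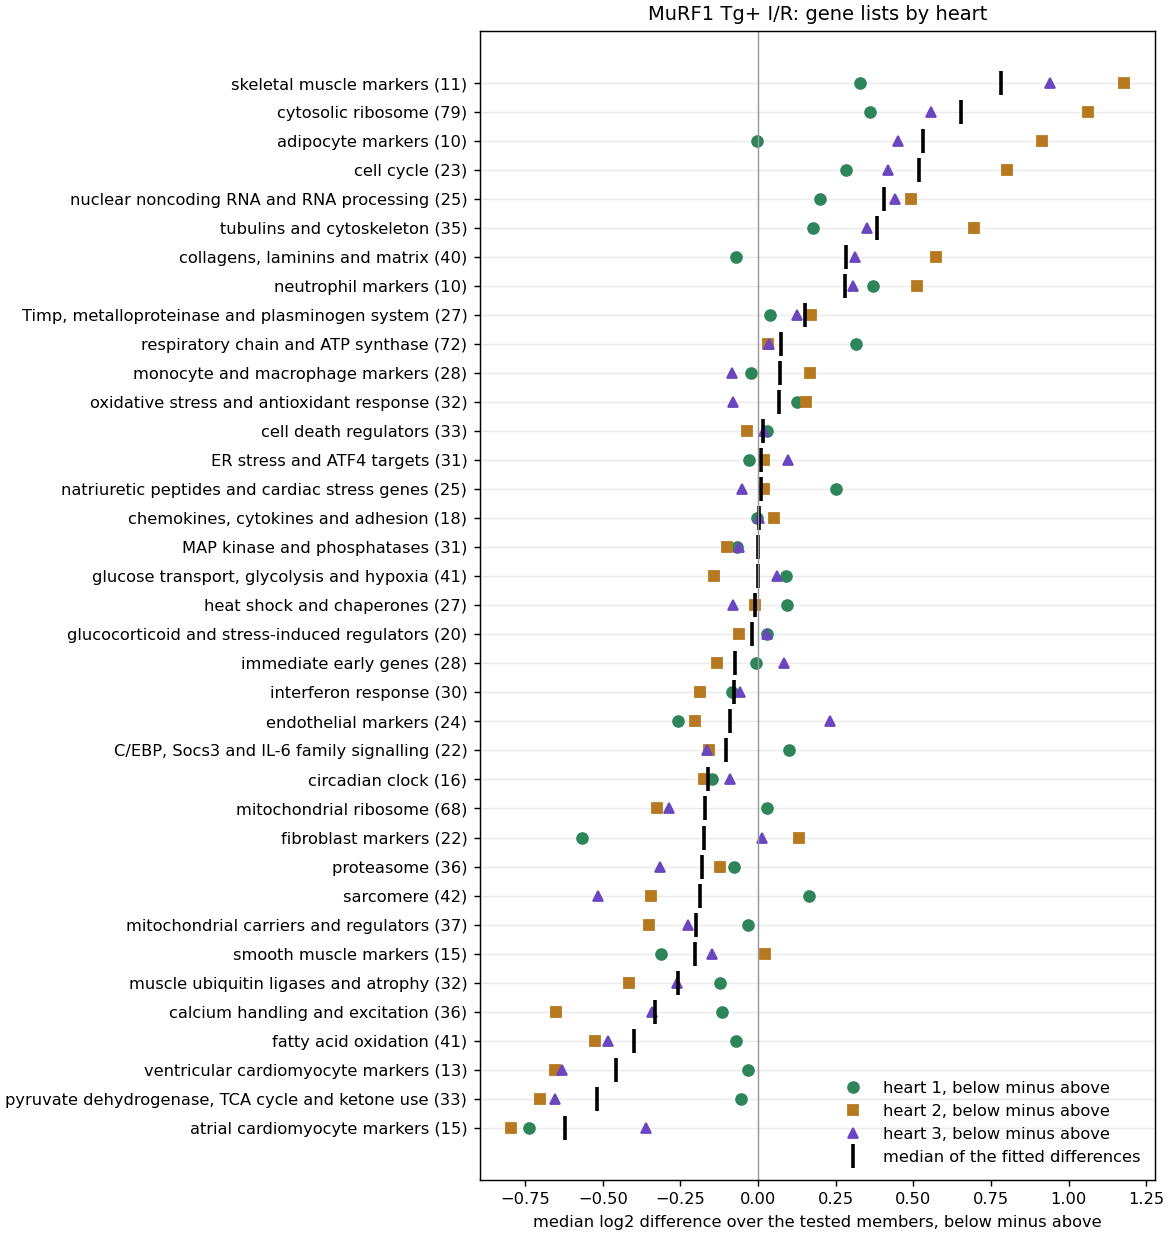
Median log2 difference, below minus above, over the tested members of each gene list with at least 10 tested (number in brackets), for the same-numbered arrays of hearts 1, 2 and 3 (circles, squares, triangles) and for the fitted differences (black bars). Heart 1 lies nearer to 0 than hearts 2 and 3 on the ribosome, fatty acid oxidation, TCA cycle and ventricular lists, and on the fibroblast list it lies farthest from 0 of the 3.

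No member of the lists for inflammation and immediate early genes was called. The medians were 0.28 over 10 neutrophil markers, 0.070 over 28 monocyte and macrophage markers, 0.0028 over 18 chemokine, cytokine and adhesion genes, -0.078 over 30 interferon-response genes and -0.075 over 28 immediate early genes. Of the 10 neutrophil markers 5 were higher at an unadjusted p under 0.05 and none lower (11.1% and 11.5% of all features). Their median was above 0 in all alternatives. At such a p 2 of the 28 monocyte and macrophage markers were higher and 2 lower. The 18 chemokine, cytokine and adhesion genes had 9 members on each side. Chil3, a chitinase-like protein of macrophages, had ratios of -0.40, 0.17 and 1.41 on the above arrays and 1.5, 2.16 and 2.08 on the below arrays. Its groups did not overlap, and the difference was 1.52 ± 0.35 (limma adjusted p = 0.0521). S100a9, a calcium-binding protein of neutrophils, differed by 1.90 ± 0.69 (limma adjusted p = 0.147) with above replicate 1 far under the rest at -3.10. Ccl2, a monocyte chemokine, read 0.19, 1.29 and 1.43 on the above arrays and 1.57, 1.76 and 1.74 on the below arrays, and differed by 0.72 ± 0.27 (limma adjusted p = 0.150). C1qb, of the macrophage list, and Cxcl16, of the chemokine list, went the other way. Over the alternatives C1qb ran from -1.055 to -0.16 and Cxcl16 from -2.38 to -0.22. By the brightest probe of each gene, whether or not it passed the filter, 8 of 21 neutrophil markers on the array were not well above background on any of the 6 arrays. Csf3r and Camp were among these 8. For Mmp9, also among them, the probe tested was another one, well above background on the 3 above arrays and on no below array.

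Single genes of the stress, cardiac stress and metalloproteinase lists stood out without passing the test, while the lists themselves were mixed. At an unadjusted p under 0.05, 3 of 32 antioxidant genes were higher and 6 lower, and of 27 chaperones 5 and 6. Of 20 stress-induced regulators 2 were higher and 3 lower, of 25 cardiac stress genes 5 and 4, and of 27 metalloproteinase list members 5 and 3. Over all features 11.1% were higher and 11.5% lower at such a p. Mt2, a metallothionein, had ratios of 0.62, 0.69 and 2.30 on the above arrays and 2.17, 3.11 and 4.02 on the below arrays and a difference of 1.90 ± 0.75 (limma adjusted p = 0.169). Cct5, a subunit of the cytosolic chaperonin that folds tubulin and actin, had ratios of -0.12, 0.067 and 0.046 on the above arrays and 0.38, 1.21 and 0.73 on the below arrays, without overlap, and a difference of 0.78 ± 0.18 (limma adjusted p = 0.0517). Cryab, the small heat shock protein alpha-B-crystallin, differed by 0.75 ± 0.23 and Hspb8, another small heat shock protein, by -0.93 ± 0.31, in opposite directions (limma adjusted p = 0.108 and 0.127). The antioxidant genes Prdx3, Gsta4 and Prdx5 were lower over the alternatives, from -0.79 to -0.21, from -1.22 to -0.57 and from -1.045 to -0.11, and were not called. Hamp, hepcidin, an iron-regulating peptide, was close to background on the 3 below arrays and was at least 1.76-fold higher above (limma adjusted p = 0.0529). Uck2, a uridine-cytidine kinase, gave 0.83 ± 0.23 and Fhl1, a LIM-domain protein of the sarcomere, gave 1.78 ± 0.56 (limma adjusted p = 0.0930 and 0.116). Serpinb1a, an inhibitor of neutrophil proteases, gave 1.00 ± 0.23, with -2.28, -1.57 and -1.57 on the above arrays and -0.92, -0.33 and -1.18 on the below arrays and no overlap (limma adjusted p = 0.0521), while Mmp3, stromelysin-1, gave -1.68 ± 0.45 (limma adjusted p = 0.0839).

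No vascular marker was called. Smooth muscle markers had a median of -0.20 over 15 and endothelial markers of -0.091 over 24. Rgs5, a pericyte regulator of G-protein signalling, differed by -0.78 ± 0.23 and Lmod1, a smooth muscle leiomodin, by -0.76 ± 0.23 (limma adjusted p = 0.101 and 0.107), each without overlap between pieces. Pecam1, an endothelial adhesion molecule, differed by -0.36 ± 0.14 (limma adjusted p = 0.163). The proteasome list had a median of -0.18 over 36, where Psmc2, an ATPase of the cap, reached -0.56 ± 0.13 and missed the threshold narrowly (limma adjusted p = 0.0502).

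Faint genes were counted apart. On all 3 above arrays but no below array, 399 features were well above background, and none showed the converse. The Cy5 channel was weaker on the below arrays, and its part in this count was not tested. Some of the 399 had a ratio difference on the higher side, so the count alone does not show genes higher above. Of the 399, 242 kept a bound over 1-fold. After Adamts8 the largest bounds were those of Mybphl, an atrial myosin-binding protein (1.93-fold higher above), Comp (1.87-fold) and Mlana, a melanocyte protein (1.83-fold). Their limma adjusted p were 0.219, 0.107 and 0.239. For Comp the bound is 0.90 on the log2 scale, more than the size of its ratio difference of -0.85. The bounds are therefore not lower limits for the ratio differences. These bounds compare Cy5 levels normalized within and between arrays, so they also rest on the step between stronger and weaker arrays. They are open to dye bias, because no dye swap was made.

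The evenness of the 3 hearts singled out other genes. Among genes whose pieces did not overlap, the same-numbered differences lay closest together for Erlin2, Grtp1, AF067063, Prpf40b and Myl7. Apart from Myl7 they were small, between -0.20 for AF067063 and 0.29 for Grtp1, and none was called. No below array read AF067063 well above background. Grtp1 gave 0.29, 0.29 and 0.29 in hearts 1, 2 and 3. Over the alternatives the difference ran from -0.17 to 0.39 for Grtp1, from -0.12 to 0.29 for Erlin2 and from -0.022 to 0.18 for Prpf40b, so that their direction turned with the processing.

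The same comparison of pieces was made in wild-type hearts after I/R and in MuRF1 Tg+ hearts after sham surgery. In wild type 2 features passed (0.0175%), both lower below, namely Mgp and Cstad (the latter named after its values were seen), and 746 had an unadjusted p under 0.05. The wild-type I/R arrays also held weak ones, on both sides: 24.2%, 15.7% and 37.8% of Cy5 spots were well above background on the above arrays and 9.90%, 38.3% and 37.9% on the below arrays. Without the weak arrays 535 features passed in wild type, where above replicate 3 was then the only above array and was assumed to vary like the other groups. In sham hearts no feature passed by limma (0%), and 106 had an unadjusted p under 0.05. Mgp had a difference of -1.44 ± 0.24 in wild-type I/R hearts and -0.14 ± 0.24 in MuRF1 Tg+ sham hearts, beside -1.53 ± 0.24 here. Fbln1 had -0.92 ± 0.24 and -0.12 ± 0.24, and Neat1 had 0.54 ± 0.30 and -0.050 ± 0.30. For Myoz2 they were -0.0034 ± 0.22 and 0.079 ± 0.22, both within their standard error of 0. Over the 55 features, 42 had the same direction in wild-type I/R hearts and 35 in MuRF1 Tg+ sham hearts. The medians of the 27 called higher were 0.70 here, 0.086 in wild-type I/R and 0.044 in sham hearts, and those of the 28 called lower -0.81, -0.17 and -0.048. The 55 were chosen for their size in MuRF1 Tg+ I/R hearts, which by itself favours larger medians there.

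Whether the piece difference itself differed was tested by interactions. None passed between genotypes after I/R (0% of features, 2071 at an unadjusted p under 0.05, smallest limma adjusted p = 0.166) and none between surgeries in MuRF1 Tg+ hearts (0%, 715 at an unadjusted p under 0.05, smallest limma adjusted p = 0.0986). So no gene was shown to differ more or less between pieces in MuRF1 Tg+ than in wild-type hearts. The smallest p for genotype belonged to Ap1s1, with an interaction of 0.93 ± 0.17, to Ino80e, a chromatin-remodelling subunit, and to Ddx42, an RNA helicase. Ap1s1 differed by 0.71 ± 0.12 here and by -0.22 ± 0.12 in wild type. For surgery the smallest p belonged to Ndufc2, Gpatch4 and Ctps, with interactions of -0.67, 0.77 and 0.95 (limma adjusted p = 0.0986, 0.227 and 0.241). Without below replicate 1, 303 features passed for genotype and 61 for surgery.

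**Figure D5:**
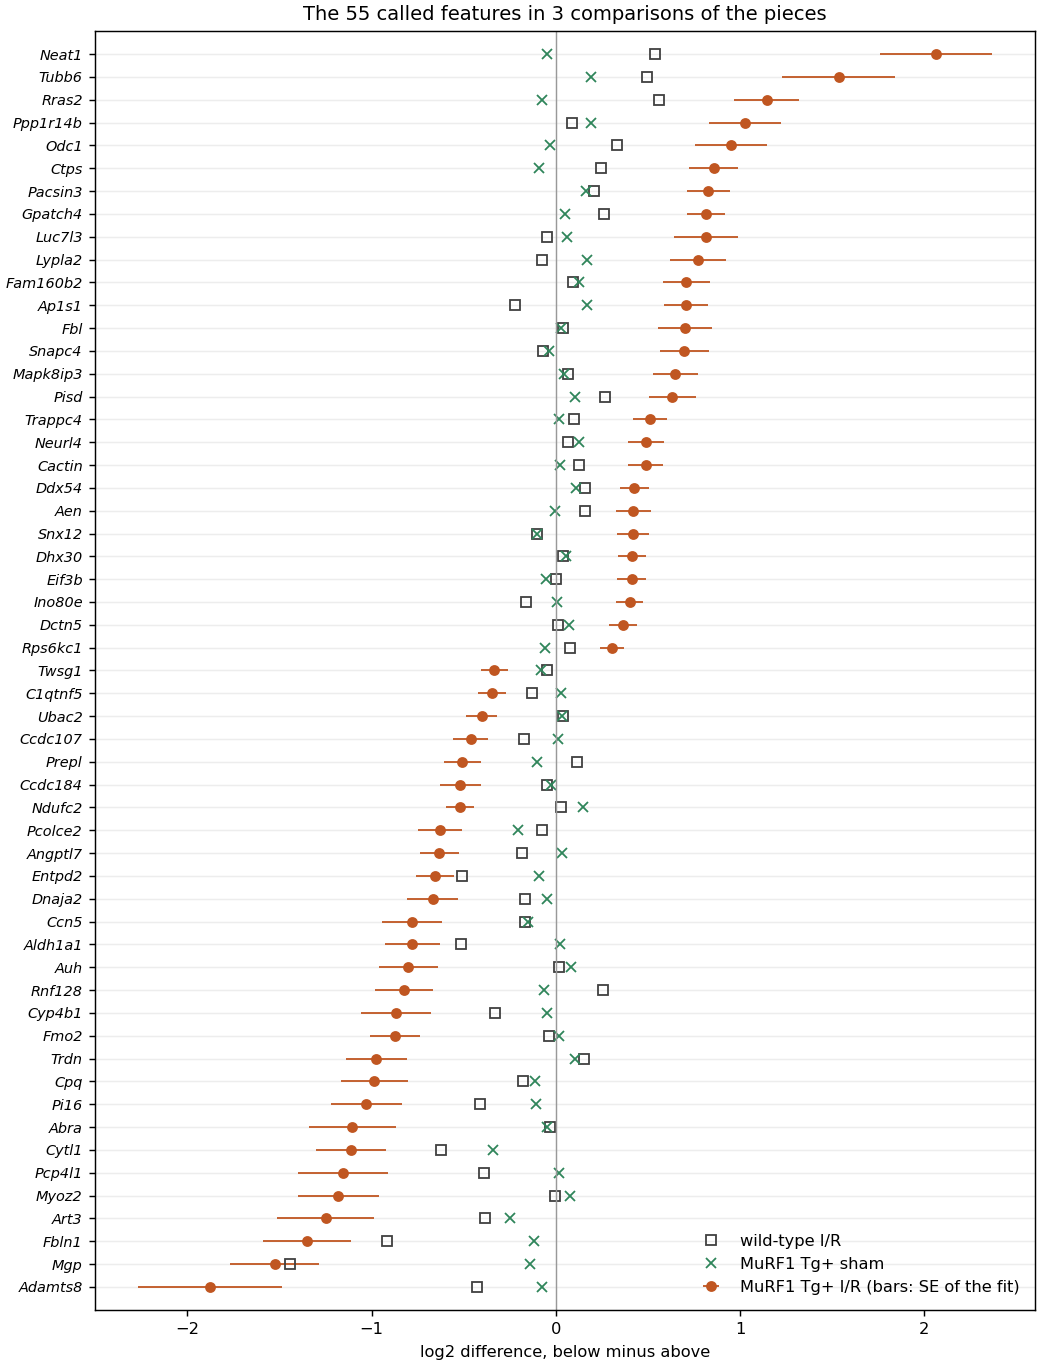
Log2 difference, below minus above, of the 55 called features in MuRF1 Tg+ I/R hearts (orange points with standard errors), wild-type I/R hearts (open squares) and MuRF1 Tg+ sham hearts (green crosses). The sham crosses lie between -0.34 and 0.19, Mgp is the decrease where wild type comes closest to MuRF1 Tg+ (-1.44 against -1.53), and Neat1 is 0.54 in wild type against 2.06.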

How the data were processed

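Values came from 24 two-colour Agilent arrays. Per the file headers, Feature Extraction 9.5.3.1 read the scans. Mean signal and background median of each spot are the deposited intensity columns, linear and not normalized. Agilent's own processing made the log10 ratio deposited with them, Cy5 over Cy3. The deposited series table holds log2 ratio values that correlated with that ratio at 0.987 or more per array, and its medians ran from -0.111 to 0.139 (its centring is not stated). Per the labels the heart RNA (50 ng) is Cy5, although a labelling text names Cy3-CTP, with no dye swap.

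Background was corrected by normexp (offset 50), which understates changes of dim spots, and ratios were normalized by loess within arrays in limma 3.58.1 (R 4.3.3). For the bounds alone, the mean intensity of the channels was also quantile normalized between arrays. Of 41174 probes, 15412 were well above background in Cy5 throughout at least 1 group. The probe brightest on average in Cy5 stood for its gene, leaving 11419 features, 75 with a missing value on some array. Symbols were updated through RefSeq (22951 probes by accession). One limma fit of 8 group means (16 residual degrees of freedom) gave all tests, adjusted by Benjamini-Hochberg at 0.05, and the pipeline was tested on simulated data. P-values rest on a spread between arrays that is pooled over all 8 groups, sham groups included. The median SD within a group ran from 0.12 to 0.22 in the I/R groups and from 0.075 to 0.10 in the sham groups. The pooled spread can therefore understate that of the I/R arrays, and the number of arrays limits the precision.

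Each heart gave both pieces, per the labels. Deviations of same-numbered pieces from their group means correlated at 0.50, 0.14 and 0.54 in MuRF1 Tg+ I/R hearts. The numbers were taken to pair them there, and the heart was a block in an alternative fit. Below replicate 2 correlated as well with above replicate 3 (0.14), so the pairing of heart 2 was not shown. In MuRF1 Tg+ sham hearts same-numbered pieces correlated at 0.44, 0.40 and 0.14. They correlated at -0.28, -0.73 and 0.53 in wild-type I/R hearts and at 0.43, -0.28 and -0.14 in wild-type sham hearts. In wild type the numbers were thus not shown to pair pieces, although the block covered all groups. Fitted without the block, the 2 pieces of a heart count as independent arrays. Alternatives covered background, ratio, channel, filter, slide, heart block, arrays in the fit, weights, probe choice, weak arrays (under 25% of Cy5 spots well above background) and each array left out.

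The comparison and the 44 gene lists were chosen with earlier results of these data known. Genes were named by a rule: Trim63, the 12 largest called increases and decreases, called list members or the 3 with the smallest p, the smallest interaction p, the largest bounds and the most even differences. Called members of a list were few, and unadjusted counts are descriptions.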

Additional observations from a re-analysis of the deposited data

How the results depend on the processing

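None of the 55 called features passed in every setting. All 55 kept their direction, which the lack of overlap between the pieces fixes for the settings that leave out 1 array or block on the heart. The count of 55 became 97 with no background correction (54 shared), 119 with Agilent's log ratio and with the deposited value table (29 shared; 40 higher and 79 lower, with the median of all features at -0.18), 98 with features well above background on all 6 arrays (4624 tested), 111 with the replicate block as a fixed term, 133 with it as a random term (correlation 0.076), 3120 with array weights, 3 with slide as a block, 3 with the 6 arrays alone and 0 with the 12 I/R arrays alone (1018 at an unadjusted p under 0.05). Array weights gave below replicate 1 the lowest weight of the 6 arrays (0.22). The split was 40 higher and 79 lower with Agilent's ratio against 27 and 28. Leaving out 1 array gave 4 to 1497. Without the weak arrays 66 passed (23 higher and 43 lower, 17 shared), which leaves below replicate 1 as the only below array, assumed to vary like the other groups. The cause of these changes was not tested, beyond the fewer arrays or features of some settings.

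In wild-type I/R hearts 2 calls became 0 with the replicate block and 535 without the weak arrays, with above replicate 3 as the only above array. The genotype interaction, 0 as reported, gave 8 with Agilent's log ratio, 91 without the weak arrays (which rest on 1 array on 1 side in each genotype) and 0 to 303 with 1 array left out. The surgery interaction, also 0, gave 6 without the weak arrays and 0 to 61 with 1 array left out. The replicate block changed no other comparison's count. Medians of the fatty acid oxidation, TCA cycle, tubulin, adipocyte and matrix lists changed sign without the weak arrays, and that of ribosomal proteins with the Cy5 channel alone. Those of the respiratory chain and endothelial lists turned in 4 alternatives each, immediate early genes in 5, and chemokine and valve lists in 8 each. Spots near background limit what the weak arrays can show.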
